A study of Mus musculus with 380 samples.

Results

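The genes described here are 9 transcripts of the T cell receptor apparatus: the CD3 chains Cd3d, Cd3e, Cd3g and Cd247, the coreceptor chains Cd4, Cd8a and Cd8b1, and the kinases Lck and Zap70. They were taken by name as a family, and all 9 were found among the 23420 gene symbols of the expression matrix. They were measured by Smart-seq2, a full-length RNA-seq protocol for single sorted cells, in T cells from B16F10 tumours, a transplantable mouse melanoma. All mice were C57BL/6. The groups were CD4 cells labelled knockout for the interleukin-27 receptor gene Il27ra (KO), CD4 cells of wild-type mice (WT), KO-label CD8 cells and WT CD8 cells. Each group is 1 plate of 94 single cells with 1 population well, a library of pooled cells, and there are 4 plates. The titles hold 1 code per genotype (KO4 and WT4), and WT CD4 titles carry p2 where the other plates carry p1, with no label that says what these mean. The treatment text speaks of CD8+ cells only, so the CD4 lineage rests on the titles. No label names a further treatment, an age or separate animals.

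The T cell receptor has no signalling domain of its own. Its signal passes through the CD3 chains, assembled as pairs of epsilon with delta or gamma and a pair of zeta chains, the last encoded by Cd247. The cytoplasmic tails of these chains carry tyrosine motifs that Lck phosphorylates when CD4 or CD8 brings it to the receptor. Zap70 then binds the phosphorylated motifs and passes the signal on to adaptors such as Lat. Mature T cells are sorted by their coreceptor, with CD4 on helper and regulatory cells and a CD8 alpha-beta pair on cytotoxic cells.

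Levels are in FPKM, fragments per kilobase of transcript relative to the size of the library. Cells entered the analysis if 1000 or more genes exceeded FPKM 1, and a gene was called detected in a cell above that same level. This left 73 KO-label CD4, 79 WT CD4, 80 KO-label CD8 and 72 WT CD8 cells, out of 94 on each plate. Their median number of genes was 2218, 2045, 2508 and 3168 in the same order, against 10450 to 10946 genes in the wells. Read depth per cell is not in the matrix. Il27ra itself was not lost from cells with the KO label: it was found in 47.9% of KO-label against 43.04% of WT CD4 cells and in 61.3% of KO-label against 65.3% of WT CD8 cells, so genotype directions are drawn between labels. The wells gave 72.7 FPKM in KO-label against 243.4 FPKM in WT CD4 cells, and 85.3 against 157.02 FPKM in CD8 cells. Since each group is 1 plate and cells of a plate are not replicates, no test was run. Intervals are exact Clopper-Pearson 95% intervals over cells and cover counting error only.

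The 3 genes of the CD3 cluster sit side by side on mouse chromosome 9 (build GRCm38), within 40.1 kb. Cd3g lies at chr9:44969572-44980431 on the minus strand and Cd3d at chr9:44981786-44987339 on the plus strand, head to head with starts 1355 bases apart. Cd3e follows at chr9:44998740-45009627 on the minus strand. Cd247 lies apart from them at chr1:165788681-165877277 on the plus strand. The promoters of these 4 genes are shown because detection of the clustered chains and of Cd247 differed, as described next. Each runs 5′ to 3′ from 250 bases before to 20 bases after the annotated start, from RefSeq sequence of GRCm38.p6, with capitals marking the ETS core AGGAAG on either strand.
Cd3d, chr9:44981536-44981805, plus strand: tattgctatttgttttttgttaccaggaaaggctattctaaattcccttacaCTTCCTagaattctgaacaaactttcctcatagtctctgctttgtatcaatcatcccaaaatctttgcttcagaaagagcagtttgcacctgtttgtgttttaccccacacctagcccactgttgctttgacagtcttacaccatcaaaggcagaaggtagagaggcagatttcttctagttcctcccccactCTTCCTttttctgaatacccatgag
Cd3g, chr9:44980412-44980681, minus strand: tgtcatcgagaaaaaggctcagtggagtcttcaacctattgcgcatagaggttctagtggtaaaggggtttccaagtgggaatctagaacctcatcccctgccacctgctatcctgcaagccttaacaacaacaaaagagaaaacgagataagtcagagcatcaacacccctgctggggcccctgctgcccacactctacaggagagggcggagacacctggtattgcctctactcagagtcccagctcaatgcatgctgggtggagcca
Cd3e, chr9:45009592-45009861, minus strand: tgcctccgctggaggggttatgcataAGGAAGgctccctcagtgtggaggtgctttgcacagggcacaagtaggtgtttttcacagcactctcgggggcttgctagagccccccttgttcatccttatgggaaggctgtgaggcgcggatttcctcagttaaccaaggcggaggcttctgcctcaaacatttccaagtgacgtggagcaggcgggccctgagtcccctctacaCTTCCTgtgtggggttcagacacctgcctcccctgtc
Cd247, chr1:165788431-165788700, plus strand: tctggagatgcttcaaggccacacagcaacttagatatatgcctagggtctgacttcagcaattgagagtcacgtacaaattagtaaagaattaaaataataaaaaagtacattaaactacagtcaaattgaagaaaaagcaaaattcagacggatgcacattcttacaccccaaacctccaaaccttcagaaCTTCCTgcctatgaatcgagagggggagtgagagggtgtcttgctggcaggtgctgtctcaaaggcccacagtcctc
The ETS core, the recognition sequence of the Ets factor family, was found 2 times each in the Cd3d and Cd3e windows, 1 time in that of Cd247 and 0 times in that of Cd3g. It occurs in 31.8% of 32851 mouse promoter windows of this length. The RUNX core TGTGGT and the TATA sequence TATAAA were found in none of the 4 windows, and they occur in 15.1% and 12.9% of all windows. The E-box CANNTG was found 1 time in Cd3d, 3 times in Cd3g and 2 times each in Cd3e and Cd247, against 68.9% of all windows with a match. Both strands were searched, and a match of letters is no evidence of binding. RefSeq windows were found for 7 of the 9 genes, all but Cd4 and Cd8b1.

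The 3 clustered CD3 chains were detected in most cells of every plate, and Cd247 was missed far more often. Cd3d, the delta chain, was detected in 84.9% of KO-label CD4 cells, 83.5% of WT CD4 cells, 90% of KO-label CD8 cells and 97.2% of WT CD8 cells. Cd3e, the epsilon chain that pairs with delta and gamma, was detected in 87.7%, 93.7%, 92.5% and 87.5% of the same groups. Cd3g, the gamma chain, was detected in 89.04%, 84.8%, 91.3% and 87.5%. The intervals of each of these 3 chains overlapped between all plates. Cd247 was detected in 71.2% of KO-label CD4 cells (59.4 to 81.2), 74.7% of WT CD4 cells (63.6 to 83.8), 53.8% of KO-label CD8 cells (42.2 to 64.97), and WT CD8 cells reached 73.6% (61.9 to 83.3). The KO-label CD8 plate was thus the lowest for Cd247, although its interval overlapped the others.

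**Figure D1:**
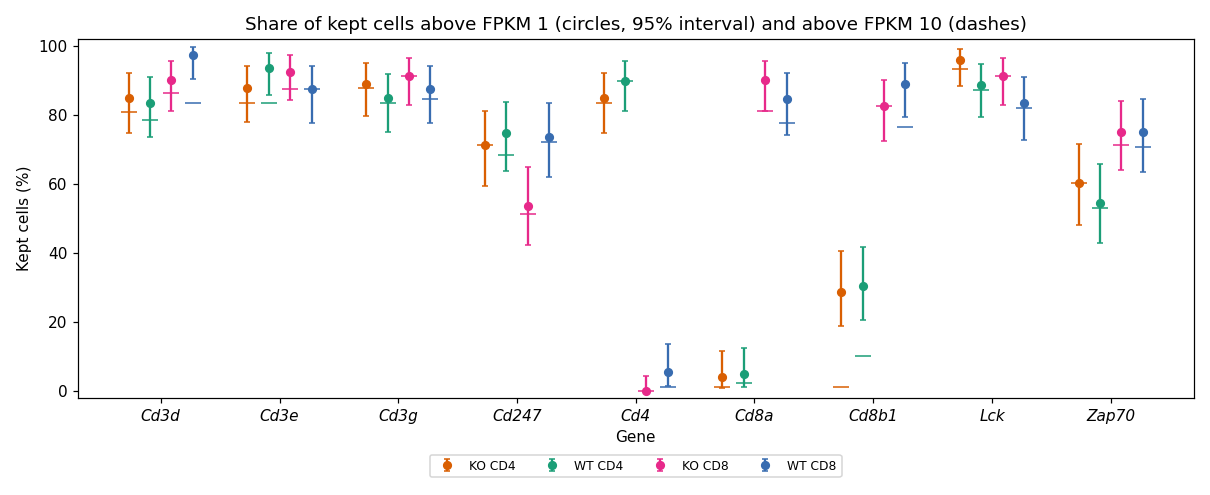
Percentage of kept cells (vertical axis) in which each of the 9 genes was above FPKM 1 (circles, with Clopper-Pearson 95% intervals as bars) and above FPKM 10 (dashes), by plate. Cd247 in KO-label CD8 cells stands at 53.8%, and Cd8b1 in CD4 cells stands near 30% above FPKM 1 but at 1.37% and 10.1% above FPKM 10.

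For Cd3e and Cd247 the order by detection was not the order by level in the wells. FPKM is corrected for transcript length, so levels can be set side by side between genes. In the wells Cd3g had 1867 FPKM in KO-label CD4 cells, 1989 in WT CD4, 1845 in KO-label CD8 and 2508 in WT CD8 cells. Cd3d had 1164, 1379, 1235 and 1273 FPKM in the same wells. Cd247 had 595.4, 416.9, 434.8 and 538.01 FPKM. Cd3e had the lowest levels of the 4 chains in every well, 333.6, 303.9, 429.5 and 510.03 FPKM. The 4 wells of Cd3g lay above those of Cd3d, and those of Cd3d above those of Cd247 and Cd3e, whose ranges overlapped. Cd3e stood below Cd247 in each of the 4 wells, yet it was detected in more single cells than Cd247 on every plate.

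In single cells the mean FPKM of Cd3e was 260.8 in KO-label CD4, 171.5 in WT CD4, 387.1 in KO-label CD8 and 431.6 in WT CD8 cells. That of Cd247 was 356.1, 254.5, 144.1 and 308.9 FPKM. Cd247 therefore exceeded Cd3e on average in CD4 cells while being detected in fewer of them. In CD8 cells of both labels Cd3e was higher on average and was also detected in more cells. Among cells with the transcript, the median of Cd247 was 369.8, 264.02, 259.2 and 378.7 FPKM, and its coefficient of variation between detecting cells was 57.7% to 87.8%. The wells stood above the cell means by a ratio of 1.11 to 1.77 for Cd3e, 1.72 to 1.99 for Cd3g and 2.00 to 2.80 for Cd3d. For Cd247 the ratio was 3.02 on the KO-label CD8 plate and 1.64 to 1.74 on the other plates. Over all genes detected in at least 20% of cells the median ratio was 1.62 to 1.88 by plate. In a well, fewer cells with a transcript and less RNA per cell cannot be told apart.

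**Figure D2:**
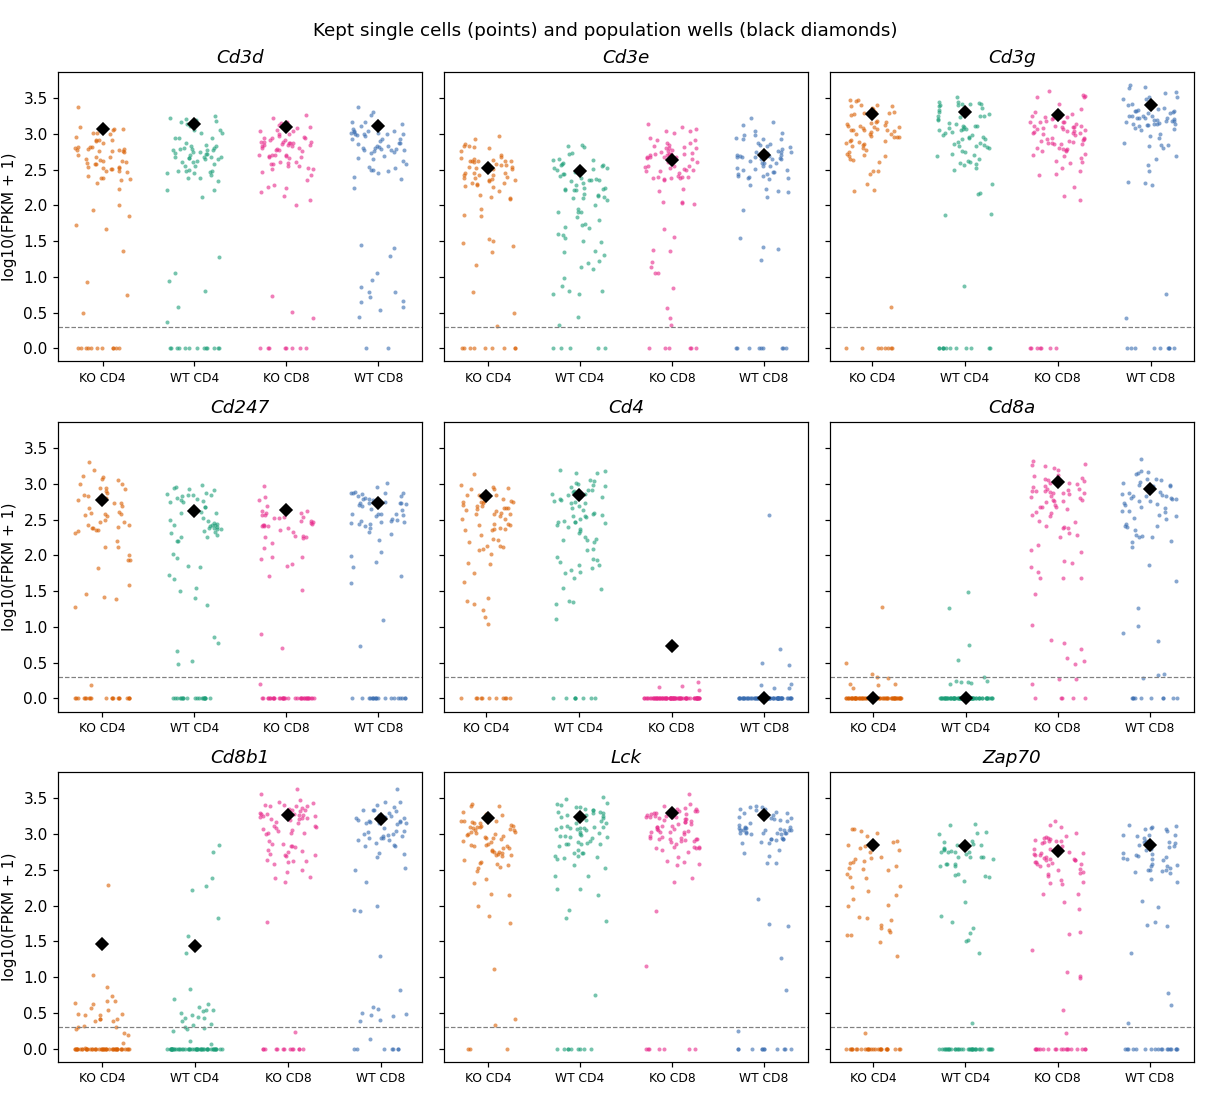
Level of each of the 9 genes as log10(FPKM + 1) in every kept cell (points, spread sideways for visibility) and in the population well (black diamonds), by plate, with the detection threshold of FPKM 1 as a dashed line. Most genes split into a band at 0 and a band above about FPKM 100, while Cd8b1 in CD4 cells forms a band just above the threshold and Cd3d has a low group in WT CD8 cells.

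All 4 CD3 chains were detected together in 56.2% of KO-label CD4 cells (44.1 to 67.8), 54.4% of WT CD4 cells (42.8 to 65.7), 46.3% of KO-label CD8 cells (35.03 to 57.8), and WT CD8 cells reached 72.2% (60.4 to 82.1). The KO-label CD8 interval lay below that of WT CD8 cells. At least 3 chains were detected in 84.9%, 89.9%, 87.5% and 86.1% of the same groups, and at least 1 chain in 97.3%, 98.7%, 98.8% and 100%. The plates were therefore close for at least 3 chains. For all 4 chains only the KO-label CD8 and WT CD8 intervals were separate, and those of every other pair of plates overlapped. In cells with exactly 3 chains the missing one was Cd247 in 12 of 21 KO-label CD4 cells, 13 of 28 WT CD4 cells, 29 of 33 KO-label CD8 cells and 9 of 10 WT CD8 cells. In WT CD4 cells the other missing chains were Cd3d in 9 and Cd3g in 6 cells, with Cd3e missing in 0.

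**Figure D3:**
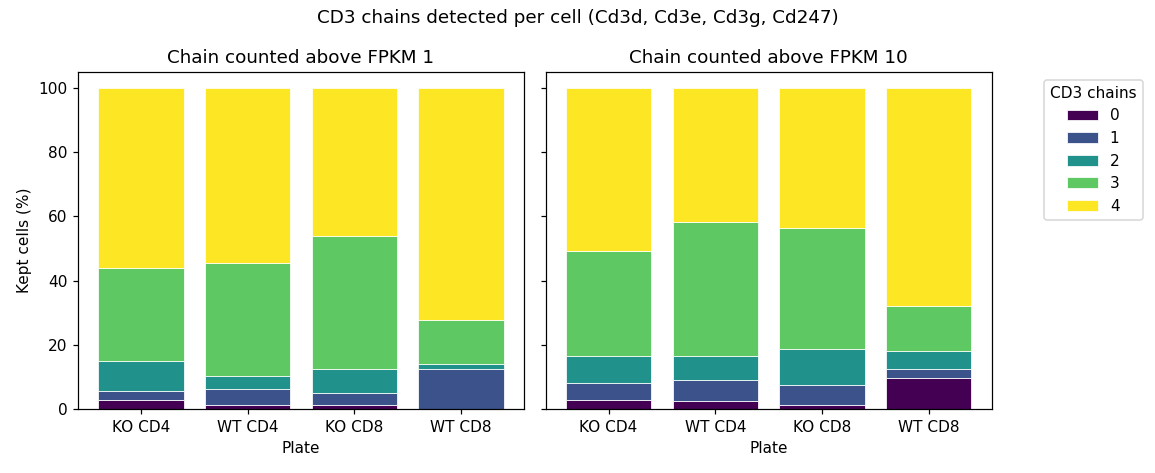
Share of kept cells (vertical axis, percent) by the number of CD3 chains detected, from 0 to 4 of Cd3d, Cd3e, Cd3g and Cd247, with a chain counted above FPKM 1 (left) or above FPKM 10 (right). The 4-chain share is 46.3% in KO-label CD8 cells and 72.2% in WT CD8 cells at FPKM 1, and 9.72% of WT CD8 cells move to 0 chains at FPKM 10.

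The number of chains went along with the number of genes a cell yielded. Kept cells of each plate were split into 3 equal classes by genes detected, low, middle and high. All 4 chains were found in 14.8%, 51.9% and 73.1% of these classes on the KO-label CD8 plate, and in 29.2%, 87.5% and 100% on the WT CD8 plate. The KO-label CD4 classes gave 44%, 70.8% and 54.2%, with no steady order, and the WT CD4 classes 40.7%, 46.2% and 76.9%. Cd247 alone was found in 29.6%, 55.6% and 76.9% of the KO-label CD8 classes and in 33.3%, 87.5% and 100% of the WT CD8 classes. When KO-label and WT CD8 cells were weighted to the same spread of genes detected, the 4-chain shares were 52.9% and 67.4%.

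A small group of WT CD8 cells had Cd3d as their lone CD3 chain, at low FPKM. There were 9 such cells of 72, with Cd3d between 2.75 and 18.3 FPKM and a median of 5.15 FPKM. In all 9 of them Cd3e, Cd3g, Cd247 and Zap70 were listed at 0, and Lck was detected in 1. They had 1056 to 3165 genes with a median of 1103, near the limit for keeping a cell. WT CD8 cells with Cd3d between 1 and 10 FPKM had it at a median percentile of 46.3 among their genes with any signal. On the other plates that median was 18.3 to 28.6. The smallest FPKM sum of a kept cell was 33551 on the WT CD8 plate, against 205202 to 260238 on the others. The part of library scaling in these low values was not tested. At the higher threshold of FPKM 10 the Cd3d share of the WT CD8 plate was 83.3%, and 7 of 72 cells (9.72%) had no chain. Single-chain cells numbered 2 of 73 KO-label CD4, 4 of 79 WT CD4 and 3 of 80 KO-label CD8 cells.

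Cells with no CD3 chain numbered 2 on the KO-label CD4 plate and 1 each on the WT CD4 and KO-label CD8 plates, against 0 on the WT CD8 plate. Of these 4 cells, 3 were rich in genes of antigen-presenting cells. The KO-label CD4 cell with 4256 genes had Lyz2, a lysozyme of myeloid cells, at 25448 FPKM and H2-Ab1, a class II antigen-presenting chain, at 51021 FPKM. The WT CD4 cell had 53363 FPKM of Lyz2 and 53610 FPKM of H2-Ab1, with Cd4 at 342.5 FPKM and Lck and Zap70 at 0. The KO-label CD8 cell had H2-Ab1 at 12381 FPKM, Lyz2 at 0 and Lck at 13.3 FPKM. The fourth, a KO-label CD4 cell with 1302 genes, had 0 for these genes and Zap70 at 277.3 FPKM.

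Cells with at least 3 markers of 1 non-T cell type (B cell, myeloid, dendritic, melanoma, neutrophil, stromal or erythroid) numbered 7 KO-label CD4, 2 WT CD4, 1 KO-label CD8 and 8 WT CD8 cells. Of the 7 KO-label CD4 cells 4, and of the 8 WT CD8 cells 7, still had 3 or 4 CD3 chains. Without these cells the 4-chain shares were 59.1%, 54.5%, 46.8% and 71.9% in the order of plates above. The median summed level of each of these marker lists over kept cells was at most 1.49 FPKM on every plate, except the melanoma list at 8.17 to 11.5 FPKM.

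Coreceptors matched the plate titles in most cells. Cd4, the helper coreceptor, at chr6:124864692-124888221 on the minus strand, was detected in 84.9% of KO-label and 89.9% of WT CD4 cells. On the CD8 plates it was found in 0 of 80 KO-label cells, where the limit of 3 cells in 80 leaves room for 3.75% of cells with detected transcript and the exact interval for 4.51%, and in 4 of 72 WT cells (5.56%). In the wells Cd4 had 679.6 and 699.8 FPKM on the KO-label and WT CD4 plates, against 4.36 and 0 FPKM on the KO-label and WT CD8 plates. The 4 WT CD8 cells had Cd4 at 362.4, 3.89, 2.12 and 1.94 FPKM. The first of them had Cd8a at 0, Cd8b1 at 5.62 FPKM and Cd3g at 0, and it was 1 of the 9 cells with low Cd3d alone.

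Cd8a and Cd8b1 encode the alpha and beta chains of CD8 and lie on chromosome 6 at chr6:71373427-71379173 and chr6:71322788-71337494, both on the plus strand and 35933 bases apart. Cd8a was detected in 4.11% of KO-label and 5.06% of WT CD4 cells, against 90% of KO-label and 84.7% of WT CD8 cells. Cd8b1 was detected in 82.5% of KO-label and 88.9% of WT CD8 cells. The CD8 wells held Cd8a at 1055 and 838.1 FPKM and Cd8b1 at 1860 and 1631 FPKM in KO-label and WT cells, so the beta chain stood above the alpha chain in both. In cells with both chains the median ratio of Cd8b1 to Cd8a was 2.74 in KO-label and 1.71 in WT CD8 cells. Both chains were detected in 65 of 80 KO-label and 57 of 72 WT CD8 cells.

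By coreceptor class, 91.3% of KO-label and 88.9% of WT CD8 cells had a CD8 chain without Cd4. Cells with neither coreceptor made up 10.96% of KO-label CD4, 6.33% of WT CD4, 8.75% of KO-label CD8 and 5.56% of WT CD8 cells. Of these cells, 6 of 8 KO-label CD4, 5 of 5 WT CD4, 6 of 7 KO-label CD8 and 4 of 4 WT CD8 cells had at least 1 CD3 chain. CD4 plates looked mixed at the low threshold, since 27.4% of KO-label and 30.4% of WT CD4 cells had Cd4 together with a CD8 chain. Above FPKM 10 these shares were 2.74% and 12.7%, and cells with Cd4 alone made up 80.8% of KO-label and 77.2% of WT CD4 cells.

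Low Cd8b1 made up most of the mixed class on the KO-label plate and a smaller part of it on the WT plate. Of the 20 mixed KO-label cells 17 had Cd8b1 between 1 and 10 FPKM, 1 had it above 10 FPKM and 2 were mixed through Cd8a alone, against 13, 8 and 3 of the 24 mixed WT cells. Cd8b1 was above FPKM 1 in 21 of 73 KO-label CD4 cells (28.8%, 18.8 to 40.6) and in 24 of 79 WT CD4 cells (30.4%, 20.5 to 41.8). Of all cells with Cd8b1, 20 of 21 KO-label and 16 of 24 WT cells had it between 1 and 10 FPKM, with medians of 2.05 and 2.08 FPKM and ranges of 1.03 to 9.71 and 1.02 to 5.91 FPKM. These values ranked low within their own cells, at a median percentile of 20.1 and 22.8 among the genes with any signal. For comparison, a typical gene detected in at least 20% of CD4 cells had 11.1% of its detecting cells in that band on either plate, while 4.91% and 5.44% of genes had at least 90% there. Cd8b1 had 95.2% and 66.7%. Cd8a, the partner chain, was co-detected with Cd8b1 in 1 CD4 cell on each plate.

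The low band was not limited to CD4 plates. In WT CD8 cells 9 of 64 detecting cells had Cd8b1 between 1.45 and 5.62 FPKM, median 2.02 FPKM, whereas no KO-label CD8 cell lay in the band. Cells left out for few genes also held Cd8b1 above FPKM 1, in 2 of 21 on the KO-label CD4 plate, 3 of 15 on the WT CD4 plate, 2 of 14 on the KO-label CD8 plate and 4 of 22 on the WT CD8 plate. Cells in the band on the CD4 plates had typical numbers of genes, with medians of 2220 and 1970 genes in KO-label and WT cells, against 2164 and 2045 genes in cells without Cd8b1. The source of the low values was not tested.

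**Figure D4:**
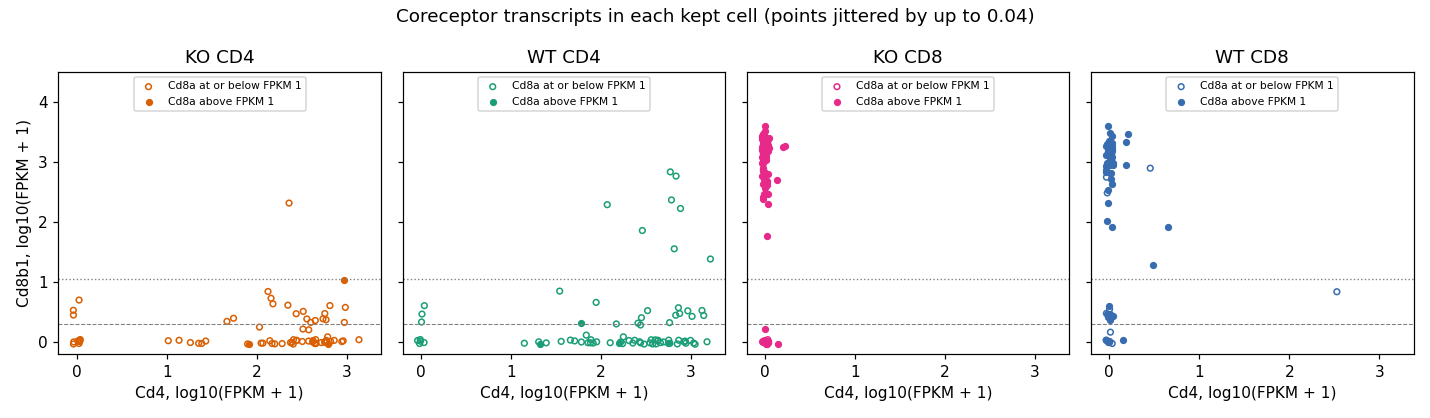
Cd8b1 (vertical axis) against Cd4 (horizontal axis), both as log10(FPKM + 1), in each kept cell of the 4 plates, with Cd8a above FPKM 1 as filled points and lines at FPKM 1 (dashed) and FPKM 10 (dotted). On the CD4 plates most Cd8b1-positive cells lie between the lines, and 1 KO-label and 8 WT cells lie above FPKM 10, all with Cd4 and without Cd8a.

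A few CD4 cells had Cd8b1 well above the band. The KO-label plate held 1 cell (1.37%) with 194.4 FPKM. The WT plate held 8 cells (10.1%) with 700.6, 559.02, 241.95, 184.8, 165.1, 66.3, 36.4 and 21.1 FPKM. All 9 cells had Cd4 between 120 and 1566 FPKM and Cd8a at 0, so no CD8 alpha transcript accompanied the beta chain. The wells of both CD4 plates held Cd8b1 at 27.8 and 26.2 FPKM with Cd8a at 0. The KO-label well thus stood at 7.94 times the mean of its cells, and the WT well at 1.03 times.

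Foxp3, the lineage factor of regulatory T cells, was set against Cd8b1 after the values were seen. Among WT CD4 cells it was detected in 6 of 8 cells with Cd8b1 above FPKM 10, in 0 of 16 cells in the low band and in 21 of 55 cells without Cd8b1. In KO-label CD4 cells it was detected in 0 of 1, 10 of 20 and 32 of 52 cells of the same classes. The 2 plates thus differed in the low band, and cells numbered 20 or fewer in each class with Cd8b1.

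Lck, the kinase that phosphorylates the CD3 tails, was detected in most cells of every plate, and Zap70, which binds the phosphorylated tails, in fewer. Lck, at chr4:129548344-129573641 on the minus strand, was detected in 95.9% of KO-label CD4, 88.6% of WT CD4, 91.3% of KO-label CD8 and 83.3% of WT CD8 cells. Its wells held 1693, 1746, 1979 and 1856 FPKM, a range that overlapped that of Cd3g. Zap70, at chr1:36761798-36782818 on the plus strand, was detected in 60.3% of KO-label CD4 cells (48.1 to 71.5), 54.4% of WT CD4 cells (42.8 to 65.7), and 75% of CD8 cells of either genotype (KO-label 64.1 to 84.01, WT 63.4 to 84.5). Its wells held 704.4, 690.8, 584.5 and 705.6 FPKM. The Zap70 shares were lower on the CD4 plates in both genotypes, with overlapping intervals, and the wells showed no such order.

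The gap for Zap70 showed in the ratio of well to cell mean, which was 3.02 in KO-label and 2.65 in WT CD4 cells, against 1.60 and 1.69 in KO-label and WT CD8 cells. In detecting cells the median of Zap70 was 318.7 FPKM in KO-label CD4, 471.3 in WT CD4, 434.3 in KO-label CD8 and 487.1 in WT CD8 cells. Both kinases were detected together in 43 of 73 KO-label CD4, 38 of 79 WT CD4, 56 of 80 KO-label CD8 and 52 of 72 WT CD8 cells. Lck without Zap70 was seen in 27, 32, 17 and 8 cells, and Zap70 without Lck in 1, 5, 4 and 2 cells.

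Differences between plates were taken as the mean of log2(FPKM + 1) over kept cells of one plate minus the other, and a gene was called different at an absolute difference of at least 1. Between KO-label and WT CD8 cells, Cd247 was the single member called of 8 measured, with a log2 difference of -1.99. Over all 6599 genes measured 22.5% were called, 3% higher and 19.5% lower in KO-label cells, and the median difference was -0.46. Mean levels of Cd247 were 144.1 FPKM in KO-label and 308.9 FPKM in WT CD8 cells. In the wells the difference was -0.31, and 35.4% of 11875 genes were called there, 18.6% higher and 16.8% lower.

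The other members in KO-label minus WT CD8 cells spread from -0.18 for Cd3e to 0.94 for Lck, with Cd8b1 at 0.51, Cd8a at 0.32, Cd3g at 0.09, Cd3d at 0.04 and Zap70 at -0.09. In the wells they lay between -0.44 for Cd3g and 0.33 for Cd8a. Cd4, at 4.36 FPKM in the KO-label and 0 in the WT CD8 well, was the 1 member of 9 called in the wells, on the higher side. WT CD8 cells included more dividing cells: at least 3 of 5 cell-cycle markers were detected in 7.50% of KO-label and 37.5% of WT CD8 cells. Without cells holding at least 2 of these markers, the difference of Cd247 was -0.97, below the size called, and that of Lck was 1.89. With cells matched on genes detected it was -1.06 for Cd247 and 1.21 for Lck. The sign of Cd247 was thus kept under both.

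Between KO-label and WT CD4 cells no member of 8 measured was called. Over all 4687 genes 10.3% were called, 8.75% higher and 1.51% lower, with a median difference of 0.16. The members ranged from -0.52 for Cd4 to 0.50 for Cd3e. In the wells they ranged from -0.24 for Cd3d to 0.51 for Cd247, none called of 8, where 36.3% of 11746 genes were called, 19.9% higher and 16.4% lower. At least 3 regulatory T cell markers were detected in 64.4% of KO-label and 37.97% of WT CD4 cells. The median summed level of the list was 2927 FPKM (0 to 26292) against 1240 FPKM (0 to 11671), and all 5 markers were detected on both plates. In the wells the summed levels were close, at 6958 FPKM in KO-label and 6546 FPKM in WT CD4 cells. The part of these markers in the differences was not tested.

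**Figure D5:**
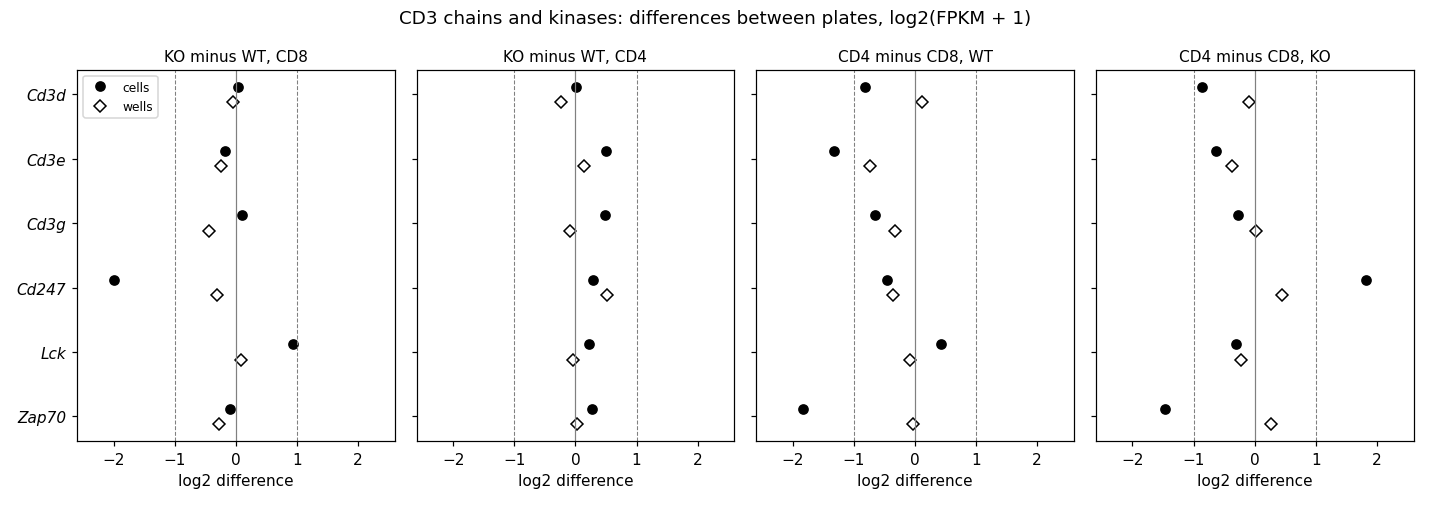
Differences between plates on the log2(FPKM + 1) scale (horizontal axis) for the 4 CD3 chains and 2 kinases, from means over kept cells (filled circles) and from the population wells (open diamonds), for the 4 comparisons named above each panel, with dashed lines at -1 and 1. Cd247 stands apart in both comparisons with the KO-label CD8 plate, at -1.99 and 1.82 in cells, and Zap70 differs between cells and wells in both comparisons of lineage.

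Between CD4 and CD8 cells the coreceptors that name the lineages led, and their differences were the check of the titles given above. In KO-label cells the difference (CD4 minus CD8) was 6.71 for Cd4, -7.23 for Cd8a and -7.66 for Cd8b1, and in WT cells it was 7.04, -6.83 and -6.69. Counting these, 5 of 9 members were called in each genotype. In KO-label cells 15.7% of 5286 genes were called, 4.63% higher and 11.1% lower in CD4 cells, and in WT cells 39.3% of 6524 genes were called, 2.16% higher and 37.2% lower. The all-gene medians were -0.21 and -0.76. In the wells 3 members of 9 were called in each genotype, Cd4 higher and both CD8 chains lower. There 36.6% of 11857 genes were called in KO-label cells, 18.5% higher and 18.1% lower, and 39.1% of 11845 genes in WT cells, 18.9% higher and 20.2% lower.

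Zap70 was called lower in CD4 cells in both genotypes, with -1.47 in KO-label and -1.83 in WT cells. The wells gave 0.27 and -0.03, so the lower single-cell values had no counterpart there. With cells matched on genes detected the differences were -0.96 and -0.82, and as log2 ratios of mean FPKM they were -0.64 and -0.67, all below the size called. Cd3e was called lower in WT CD4 cells at -1.32, with -0.74 in the wells, and stood at -0.64 in KO-label cells, with -0.36 in the wells. Leaving out cycling cells gave -0.85 for Cd3e in WT cells. Over 11 alternatives the Cd3e value in WT cells ranged from -2.01 to -0.51 and kept its call in 8. Cd247 was called higher in KO-label CD4 than in KO-label CD8 cells, at 1.82 with 0.45 in the wells, and stood at -0.46 in WT cells with -0.37 in the wells. Both of the comparisons in which Cd247 was called share the KO-label CD8 plate.

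Other genes of receptor signalling were read from a list of 48 genes, of which 45 were in the matrix. In KO-label minus WT CD8 cells, 5 of 42 measured were called higher (11.9%) and 4 lower (9.52%), beside 3% and 19.5% of all genes, with a list median of -0.04. The largest differences with the same sign in the wells were Tespa1, an adaptor of thymocyte signalling, at 2.33 (detected in 46.3% of KO-label and 8.33% of WT CD8 cells), and Sh2d1a, the SAP adaptor, at -2.21. Dgka, a kinase that removes diacylglycerol, followed at 2.06, the adaptor Skap1 at 1.41, the phosphatase CD45 (Ptprc) at 1.25 and the Csk-binding Pag1 at 1.17. In the wells Tespa1 had 73.5 FPKM in KO-label and 14.97 FPKM in WT CD8 cells, and Pag1 had 24.2 and 3.94 FPKM. Over the list, 8 of 45 genes were called higher in the wells (17.8%) and 0 lower, beside 18.6% and 16.8% of all genes.

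In KO-label minus WT CD4 cells 1 of 41 list genes was called higher (2.44%) and 5 lower (12.2%), beside 8.75% and 1.51% of all genes, with a list median of -0.19 beside the all-gene median of 0.16. Those with the same sign in the wells were Ubash3a at -1.47 and the phosphatase Ptpn22 at -1.36, both of which restrain receptor signalling, the phospholipase Plcg1 at -1.17 and the kinase Txk at -1.003. Ubash3a was detected in 43.8% of KO-label and 62.03% of WT CD4 cells. The share of cells with regulatory T cell markers, given above, also differed between these 2 single plates, and its part in these values was not tested. The well of Ptpn22 held 452.1 FPKM in KO-label and 551.6 FPKM in WT CD4 cells. Over the list, 2 of 45 genes were called higher in the wells (4.44%) and 4 lower (8.89%), beside 19.9% and 16.4% of all genes. The lower share of the list thus exceeded that of all genes in cells and not in wells.

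Between lineages the list held 16 genes called lower in CD4 cells in each genotype, of 42 measured in KO-label and 43 in WT cells, and 5 and 7 called higher. The lower share was 38.1% of the list beside 11.1% of all genes in KO-label cells, and 37.2% of the list beside 37.2% of all genes in WT cells, where it equals the background. In KO-label cells Ptpn22 (-2.38), the ubiquitin ligase Cblb (-2.22), the phosphatase Ptpn6 (-2.13), the adaptor Sh2d2a (-2.12) and the adaptor Lax1 (-1.97) were lower in CD4 cells, and the receptor Cd6 was higher (2.00). In WT cells Sh2d1a (-2.56), Ptpn6 (-2.24), Cblb (-2.10), Ubash3b (-2.08) and Lax1 (-2.01) were lower and Dgka (2.30) was higher. Ptpn6 differed little in the WT wells, at 421.9 FPKM in CD4 and 433.03 FPKM in CD8 cells. In the wells 15.6% of 45 list genes were called lower beside 18.1% of all genes in KO-label cells. The WT wells gave 13.3% of the list beside 20.2% of all genes. The higher shares in the wells were 4.44% of the list beside 18.5% in KO-label and 15.6% beside 18.9% in WT cells.

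Within cells Cd3e and Cd3g were mostly seen together, and each of them alone was detected in most cells. Cd3e and Cd3g were detected together in 63 and missed together in 9 of 72 WT CD8 cells, with no cell that had 1 without the other, and the 9 were the cells with low Cd3d alone. They were detected together in 60 of 73 KO-label CD4, 66 of 79 WT CD4 and 71 of 80 KO-label CD8 cells, and missed together in 4 cells on each of these plates. A single one of them was missed in 9 KO-label CD4, 9 WT CD4 and 5 KO-label CD8 cells, more often than both. The correlation of their detected states, which allows for the single shares, was 0.40, 0.47 and 0.58 on these plates. On the WT CD8 plate it was 1 and rested on the 9 cells with low Cd3d alone, which had 1056 to 3165 genes (median 1103). Cd3e was detected without Cd247 in 16, 16, 34 and 10 cells of the KO-label CD4, WT CD4, KO-label CD8 and WT CD8 plates, and Cd247 without Cd3e in 4, 1, 3 and 0 cells. In the 40 KO-label CD8 cells with both, their FPKM values ran against each other (Spearman rho -0.50), against 0.12 in 48 KO-label CD4, 0.18 in 58 WT CD4 and 0.23 in 53 WT CD8 cells. The value of -0.50 was the lowest of all CD3 pairs on any plate and was picked out after the values were seen. The 6 CD3 pairs of KO-label CD8 cells had a median rho of 0.05 and reached 0.42.

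Likeness to all other genes was measured as the mean of within-plate Spearman correlations over the kept cells of the 4 plates, among 3334 genes detected in at least 20% of cells of every plate. All such values share each cell's library and depth and are given as a description. The gene closest to Cd3d was Cd3g at 0.42, above all 3334 other genes, of which the myosin light chain Myl12a (0.36), Ptprcap (0.36) and Nkg7 (0.36) came next. Cd3g was likewise closest to Cd3e at 0.38, ahead of Nkg7 (0.35), Lat (0.33) and Ldha (0.31). With the number of genes detected held constant, Cd3g still led for both, at 0.36 and 0.31. Cd247 had 0.20 with Cd3d, 0.21 with Cd3g and 0.27 with Cd3e, and its nearest genes were Cnn2 (0.40), Limd2 (0.37) and Sugt1 (0.35).

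Cd3g itself was nearest to Tmsb4x (0.44), Cd52 (0.44) and Rac2 (0.42). Lck was nearest to Actb (0.35), Arhgdib (0.35) and Capzb (0.33), and Zap70 to Nkg7 (0.39), Pfn1 (0.36) and Ldha (0.35). With the number of genes detected held constant, 1 of these 3 genes stayed among the nearest 3 for Lck (Arhgdib, 0.25) and for Zap70 (Nkg7, 0.29), while all 3 stayed for Cd3g and 1 of 3 for Cd3e. Some of the means without this adjustment hide wide ranges between plates. Lck with Arhgdib ran from 0.03 to 0.59, Zap70 with Ldha from 0.11 to 0.56 and Cd3g with Tmsb4x from 0.29 to 0.79. In the CD8 cells of both plates, Cd8b1 was closest to Cd8a (0.59) and Cd3g (0.57), above all 4689 other genes, of which Arpc1b (0.52), Clic1 (0.52) and Nkg7 (0.51) came next. Cd8a was closest to Nkg7 (0.61), a granule gene of cytotoxic cells, then Myl12a (0.59) and Cd8b1 (0.59), with Pkm at 0.56. In the CD4 cells of both plates the values for Cd4 were lower, with Acot7 at 0.33, 4930519G04Rik at 0.31 and Dynlrb1 at 0.30.

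Within the CD4 plates, cells with Foxp3 held Cd3g and Cd3d in larger shares. Cd3g was detected in 95.2% of 42 Foxp3-positive and 80.6% of 31 Foxp3-negative KO-label cells, and in 96.3% of 27 and 78.8% of 52 WT cells. Cd3d was detected in 92.9% and 74.2% of KO-label and 88.9% and 80.8% of WT cells, Foxp3-positive first. In WT cells Cd3e (100% and 90.4%), Cd247 (85.2% and 69.2%) and Cd4 (96.3% and 86.5%) did likewise, as did Lck and Zap70. In KO-label cells Lck, Zap70, Cd3e and Cd247 differed by less, and Cd4 went the other way (80.95% and 90.3%). Cd8b1 above FPKM 1 was detected in smaller shares of Foxp3-positive cells on both plates. Its mean log2(FPKM + 1) was also lower in Foxp3-positive KO-label cells (0.42 against 0.96), but higher in Foxp3-positive WT cells (1.51 against 0.89). Of the 8 WT cells with Cd8b1 above FPKM 10, 6 had Foxp3, so the WT direction depended on the threshold. Shares over all genes are not given here, so a shift common to many genes cannot be told apart. The intervals overlapped in each pair, and Foxp3-positive cells also had more genes, with medians of 2268 against 2123 in KO-label and 2404 against 1891 in WT cells.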

How the data were processed

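The matrix holds FPKM values with TMM scaling between libraries, deposited by the authors, and the submitters' processing notes name RSEM, Bowtie and mm10 with no versions. Other steps are not given in the sources used here. All 380 columns matched a sample title, and no 2 columns were identical. FPKM is no count, so no count model was used, and each group is 1 plate, so no test was run. Values were computed in Python 3.11.15 with numpy 2.4.6, pandas 2.3.3 and scipy 1.17.1. Cells needed 1000 genes above FPKM 1. Differences are of mean log2(FPKM + 1), which understates changes of low genes, over genes found in 20% or more of the kept cells of 1 group (in wells, above FPKM 1 in 1 well). Positions are from GENCODE M21, which has the files' build. The calculations were tested on simulated data. Named list genes are up to 6 per comparison, the largest past 1 in cells with the same sign in wells. The other alternatives tried were detection thresholds, cell filters, matching on genes detected, pseudocounts of 0.1 and 10, ratios of means, no gene filter, leaving out cycling cells, partial correlations and a rescaling to TPM. The members and lists were chosen with earlier results of these data known. Of 6 gamma-delta T cell markers only Sox13 was in the matrix, so that cell type was not checked. At least 3 markers of NK cells were detected in 0% of CD4 cells, 6.25% of KO-label and 0% of WT CD8 cells. At least 3 regulatory T cell markers were detected in 15% of KO-label and 25% of WT CD8 cells. Foxp3 itself was above FPKM 1 in no kept WT CD8 cell, so the share there rests on the other markers of the list.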

Additional observations from a re-analysis of the deposited data

Results flagged for a closer look

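Cd247 pointed in opposite directions between genotypes in the 2 lineages, and the difference between lineages was not tested. The KO-label minus WT value was -1.99 in CD8 cells and 0.28 in CD4 cells on the log2 scale, beside all-gene medians of -0.46 and 0.16. In the population wells it was -0.31 and 0.51. With no filter on cells the CD4 value was -0.14, the same sign as the CD8 value of -1.22.

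Cells left out for having under 1000 genes still held CD3 transcripts on the WT plates. At least 1 CD3 chain was above FPKM 1 in 4 of 15 left-out WT CD4 cells (26.7%, 7.79 to 55.1) and in 6 of 22 left-out WT CD8 cells (27.3%, 10.7 to 50.2), against 3 of 21 on the KO-label CD4 plate and 1 of 14 on the KO-label CD8 plate. In none of these cells were all 4 chains detected. No empty well was available as a control.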

How the results depend on the processing

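No paired analysis was possible because each group is 1 plate. The groups compared share the genotype code, p1, both or neither, and no label says what these mean. No replicate could be left out either. Of the alternative values of the main shares and counts, 100 stayed within their interval or within 1.5 times the count and 24 moved. The share with all 4 CD3 chains was 43.6% in KO-label CD4 and 55.3% in WT CD8 cells with no filter on cells, 41.8% in WT CD4 cells above FPKM 10, 65.9% in WT CD4 and 86.4% in WT CD8 cells with at least 2000 genes, and 83.9% in WT CD8 cells with at least 1500 genes. Cd8b1 above FPKM 10 was found in 1.37% of KO-label and 10.1% of WT CD4 cells. Cells with Cd4 alone made up 80.8% of KO-label and 77.2% of WT CD4 cells above FPKM 10, and in KO-label CD4 cells 45.2% above FPKM 0 and 44.7% with no filter. Cells with a CD8 chain alone fell to 79.8% of KO-label and 73.4% of WT CD8 cells with no filter. In KO-label minus WT CD8 cells, where 1 member was called, 2 were called with at least 2000 genes, with a pseudocount of 0.1, after rescaling to TPM and without cells holding markers of another type, 3 with no filter and without cycling cells, and 4 with matching and with at least 1500 genes. Members and directions changed: with at least 1500 genes all 4 were lower (Cd3e -1.03, Cd3g -1.01, Cd247 -2.86, Zap70 -1.10), with matching 3 were higher (Cd8a 1.13, Lck 1.21, Zap70 1.08) and Cd247 lower, and without cycling cells 3 were higher (Cd8a 1.12, Cd8b1 1.81, Lck 1.89). Zap70 was -1.11 with at least 2000 genes, so it was called in both directions. The signalling list had 15 genes called without cycling cells and 14 with at least 1500 genes, against 9. It had 5 by ratio of means and 3 with a pseudocount of 10. The all-gene median of that comparison, -0.46, was 0.02 with matching and 0.11 without cycling cells. In KO-label minus WT CD4 cells 1 member was called by ratio of means, against 0, and in WT CD4 minus CD8 cells 8 with at least 1500 genes, against 5. The signalling list had 6 genes called in KO-label minus WT CD4 cells. There it had 0 with a pseudocount of 10, 3 by ratio of means, 10 with at least 2000 genes and 13 with a pseudocount of 0.1. Cd247 in KO-label minus WT CD8 cells ranged from -2.86 to -0.97 over 11 alternatives and kept its call in 10, and in KO-label CD4 minus CD8 cells from 1.11 to 2.40, called in all 11. Lck in KO-label minus WT CD8 cells, at 0.94 and not called, ranged from 0.07 to 1.89. It stayed below the size called in 5 of 11 alternatives. The filters of 1500 genes, of marker-bearing cells and the TPM scale were chosen after the data were seen, and the cause of these shifts was not tested. Read depth per cell is unknown, so an undetected transcript is not shown to be absent.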
